A study of Mus musculus with 12 samples.

Results

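The 44 genes described here encode proteins of the cell division cycle and were given as a list of names, proposed with earlier results of these data known. Each was found by its Ensembl identifier among the 55413 genes of the table, and all 44 had a row that was tested. Of these, 17 act mainly before or during S phase, in the decision to replicate and in DNA synthesis, and are called replication members below. They include geminin (Gmnn), which holds back licensing after S phase. The other 27 act mainly in G2 and mitosis and are called mitotic members.

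A dividing cell licenses its replication origins by loading the MCM helicase in G1, and cyclin E, its kinase and the E2F factors then start DNA synthesis. Genes of this first wave are transcribed under E2F control, whereas a later wave, which carries cells through G2 and mitosis, depends on the MuvB complexes with B-Myb and on FOXM1. Both waves run one after the other in each cycle, so transcripts of both are present in a culture that contains dividing cells, and both decline when cells leave the cycle. Fibroblasts in culture divide until contact, serum withdrawal or the inhibitors p16, p15 and p21 hold them in G1.

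The study examined cultures, labelled synovial fibroblasts (cells of the joint lining), from the paws of inbred BALB/c animals in which crystals of monosodium urate (MSU), the crystals of gout, had been injected. It compared 4 groups of 3 RNA sequencing libraries. The in vivo treated group came from primed paws of mice that received I-BET151, an inhibitor of the acetyl-histone readers of the BET family, by daily intraperitoneal injection (20 mg/kg) begun 1 day ahead of the first crystals. The in vitro treated group was primed-paw cells given 1 µM of the inhibitor in culture for 24 h before harvest. The primed vehicle group came from primed paws of mice injected with no inhibitor, and the non-primed vehicle group from non-primed paws of such mice. Primed paws were left paws that received MSU on day 0 and again on day 9, whereas non-primed paws were right paws given it on day 9 alone, so side and priming cannot be told apart. All cultures were grown from collagenase-digested paws freed of skin, with the cells of 2 to 3 paws pooled, and were passaged 5 times, and RNA was taken on day 18. The labels do not tie libraries to animals, so p-values measure the spread between these libraries, which may be technical.

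Libraries did not follow the group labels alone. All 3 non-primed vehicle libraries and in vivo treated libraries 2 and 3 were rich in transcripts of pigment cells. The mean over 15 melanocyte markers ranged from 12.44 to 13.95 in these 5 libraries, against 5.22 to 6.45 in the remaining 7, and no marker was at 0 in all libraries. In primed against non-primed vehicle libraries 14 of these markers were lower and 1 was higher, by 3.57 log2 units. The mean over 10 fibroblast markers ranged from 5.91 to 10.48 in the 5, against 13.98 to 14.96 in the 7, and the mean over 10 macrophage markers from 3.11 to 5.62 in the 5, against 6.67 to 8.79 in the 7. Both vehicle groups and the in vitro treated group were therefore of 1 kind each, whereas the in vivo treated group was divided. Whether the labels and cultures of in vivo treated libraries 2 and 3 are as given was not tested. Nor was it tested whether they share a culture with each other or with non-primed vehicle library 3. Counts of members that rest on them are therefore also given without them, which was not done for the further gene lists. Values are regularized log2 (rlog) expression levels, which are not scaled by transcript length, so levels are compared between libraries and not between genes. The sequencing depth of each library is unknown.

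Promoter windows are shown for the members that varied most between group means among those with an entry, which were E2f2 and Mcm2 of the replication members and Cenpf and Mki67 of the mitotic members. E2f2 encodes an activating E2F factor, Mcm2 a subunit of the replicative helicase, Cenpf a kinetochore protein and Mki67 the proliferation antigen Ki-67. Each window runs 5′ to 3′ on the strand of the gene from 250 bases before to 50 after the annotated start, from RefSeq on GRCm38.p6, at chr4:136172024-136172323 on the plus strand for E2f2, which has 2 windows in the table, and at chr6:88898731-88899030, chr1:189688037-189688336 and chr7:135716330-135716629 on the minus strand for Mcm2, Cenpf and Mki67. Capitals mark 3 kinds of motif on either strand, namely the cell cycle homology region (CHR, TTTGAA), the CCAAT box and an E2F core (TTGGCGC in one form, TTCCCGC in another, TTGCCGC in a further form and TTCGCGC in the last).
E2f2: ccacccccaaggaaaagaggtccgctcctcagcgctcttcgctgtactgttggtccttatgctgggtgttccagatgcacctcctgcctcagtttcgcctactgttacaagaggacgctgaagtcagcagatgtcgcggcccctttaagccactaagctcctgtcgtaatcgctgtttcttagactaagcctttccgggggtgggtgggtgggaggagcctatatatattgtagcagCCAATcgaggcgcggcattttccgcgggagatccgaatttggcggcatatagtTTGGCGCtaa
Mcm2: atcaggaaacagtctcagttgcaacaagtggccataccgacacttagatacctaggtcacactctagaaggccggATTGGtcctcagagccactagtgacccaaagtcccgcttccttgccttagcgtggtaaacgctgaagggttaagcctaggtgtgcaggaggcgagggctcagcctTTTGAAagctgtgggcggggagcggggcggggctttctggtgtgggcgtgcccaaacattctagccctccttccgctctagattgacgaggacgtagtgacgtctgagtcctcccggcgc
Cenpf: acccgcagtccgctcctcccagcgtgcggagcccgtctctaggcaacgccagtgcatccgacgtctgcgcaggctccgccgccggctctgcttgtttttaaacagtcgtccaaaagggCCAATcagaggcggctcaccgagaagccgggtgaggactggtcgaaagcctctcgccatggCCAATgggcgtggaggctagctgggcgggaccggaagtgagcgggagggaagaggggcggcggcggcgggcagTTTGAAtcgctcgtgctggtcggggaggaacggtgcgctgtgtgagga
Mki67: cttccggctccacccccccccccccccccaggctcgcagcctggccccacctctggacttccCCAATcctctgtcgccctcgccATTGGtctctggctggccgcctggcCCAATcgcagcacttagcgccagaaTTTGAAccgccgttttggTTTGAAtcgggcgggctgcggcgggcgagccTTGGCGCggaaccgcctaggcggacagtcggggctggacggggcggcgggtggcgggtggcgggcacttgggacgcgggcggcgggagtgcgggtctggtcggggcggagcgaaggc
The Cenpf window held 1 CHR and 2 CCAAT boxes, and the Mki67 window held 2 CHR, 3 CCAAT boxes and 1 E2F core. In the Mcm2 window 1 CHR and 1 CCAAT box were found, and in the E2f2 window shown 1 CCAAT box and 1 E2F core. The second E2f2 window held 1 CHR and 3 CCAAT boxes.

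The promoter table had an entry for 14 of the 17 replication members and 21 of the 27 mitotic members. A CHR was found in 21.4% of the replication members and 76.2% of the mitotic members, against 20.2% of the 27025 genes of the table, counting a gene where any of its windows held the motif. For the E2F core the shares were 57.1% of replication members, 14.3% of mitotic members and 10.9% of all genes. A CCAAT box was common to both classes, at 71.4% of replication and 85.7% of mitotic members against 41.1% of all genes. The minus-strand form of the CCAAT box, ATTGG, can share bases with an E2F core, and a match is a description of the letters in a window, not of binding.

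Across the 12 libraries nearly all members were high in the same libraries as the pigment-cell transcripts. In 41 of 44 members every one of the 5 libraries rich in melanocyte transcripts lay above all 7 others, against 19.6% of the 16459 genes tested. This held for all 27 mitotic members, with gaps of 0.91 (Ube2c) to 2.16 log2 units (Mki67) between the lowest of the 5 and the highest of the 7. It held for 14 of 17 replication members, with the widest gap, 2.21, in Mcm2. The 3 members whose libraries overlapped were cyclin E2 (Ccne2), E2f1 and thymidylate synthase (Tyms). In bulk libraries a smaller share of dividing cells and less of these transcripts per cell cannot be told apart.

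The mean deviation of a class from the 12-library mean of each gene summarises this per library. For the 17 replication members it was -0.62, 0.92 and 0.90 in the in vivo treated libraries, -0.67, -0.47 and -0.82 in the in vitro treated, -0.66, -0.45 and -0.98 in the primed vehicle and 0.69, 1.14 and 1.00 in the non-primed vehicle libraries. For the 27 mitotic members it was -0.57, 1.14 and 1.13 in the in vivo treated libraries, -0.64, -0.63 and -1.26 in the in vitro treated, -0.93, -0.86 and -1.34 in the primed vehicle and 1.32, 1.40 and 1.25 in the non-primed vehicle libraries. In vivo treated library 1 thus stood among the in vitro treated and primed vehicle libraries in the replication members and just above all 6 in the mitotic members, and in vivo treated libraries 2 and 3 stood next to the non-primed vehicle libraries.

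**Figure D1:**
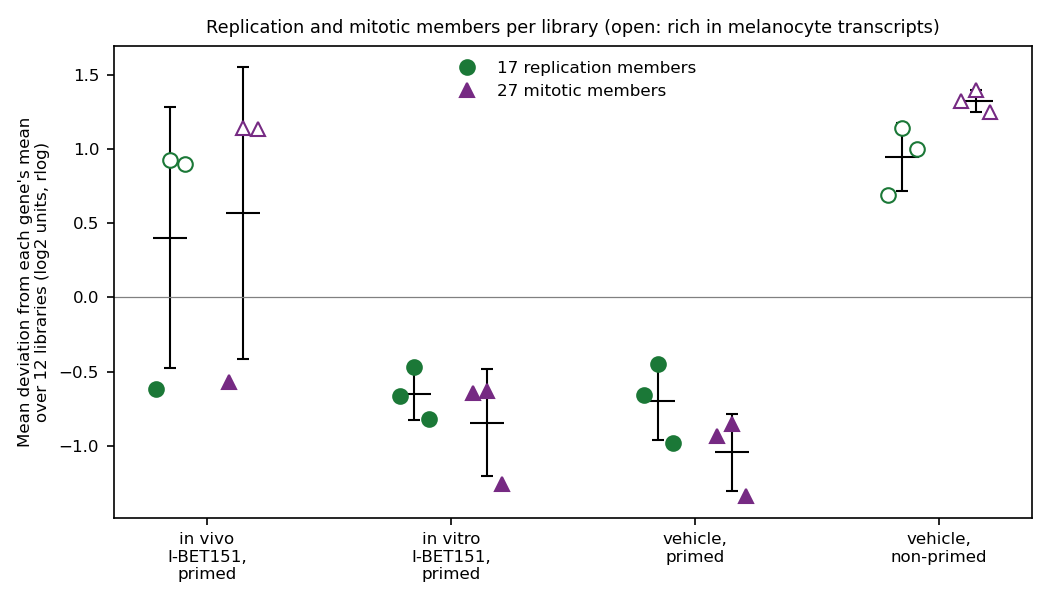
Mean deviation of the 17 replication members (circles) and the 27 mitotic members (triangles) from each gene's mean over 12 libraries, in log2 units, per library and group, with open symbols for libraries rich in melanocyte transcripts and bars for the group mean and SD. The 5 open libraries lie above 0 and the 7 filled ones below 0 in both classes.

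As classes, mitotic members spread further than replication members, but not in every subgroup. The origin licensing and helicase members averaged 1.22 in non-primed and -0.92 in primed vehicle libraries. The mitotic subgroups ran from 1.14 and -0.90 (spindle checkpoint and anaphase) to 1.46 and -1.22 (centromere, chromosome and passenger). Cyclin E and E2F members averaged 0.62 and -0.41, and those of DNA synthesis and nucleotide supply 0.66 and -0.47. The mitotic minus the replication deviation was 0.16 ± 0.10 in in vivo treated, -0.19 ± 0.23 in in vitro treated, -0.35 ± 0.07 in primed vehicle and 0.38 ± 0.22 in non-primed vehicle libraries (SD, n = 3 each). It ranged from 0.22 to 0.63 in the 5 libraries rich in melanocyte transcripts, against -0.44 to 0.04 in the remaining 7. The in vitro treated and primed vehicle libraries were also uneven within their groups. Library 3 was the lowest of the in vitro treated group in 13 of 17 replication and 27 of 27 mitotic members, and library 3 of the primed vehicle group was the lowest in 16 of 17 and 26 of 27.

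Pairs of libraries differed widely in how close they were over the members. In vivo treated libraries 2 and 3 differed by a median of 0.050 log2 units over the 44 members and by at most 0.14. Each differed from non-primed vehicle library 3 by a median of 0.098 and 0.109, less than the 0.214 and 0.262 by which that library differed from libraries 1 and 2 of its own group. In vivo treated library 1 differed by 1.72 and 1.74 from libraries 2 and 3 of its own group and by 0.083 and 0.095 from in vitro treated libraries 1 and 2. This closeness was not particular to the members. Over all tested genes in vivo treated libraries 2 and 3 differed by a median of 0.090, and from non-primed vehicle library 3 by 0.107 and 0.098. That library differed by 0.480 and 0.482 from libraries 1 and 2 of its own group. In vivo treated library 1 differed by 0.149 and 0.172 from in vitro treated libraries 1 and 2. The table holds no counts, so whether a pair differs by less than sampling noise could not be tested.

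**Figure D2:**
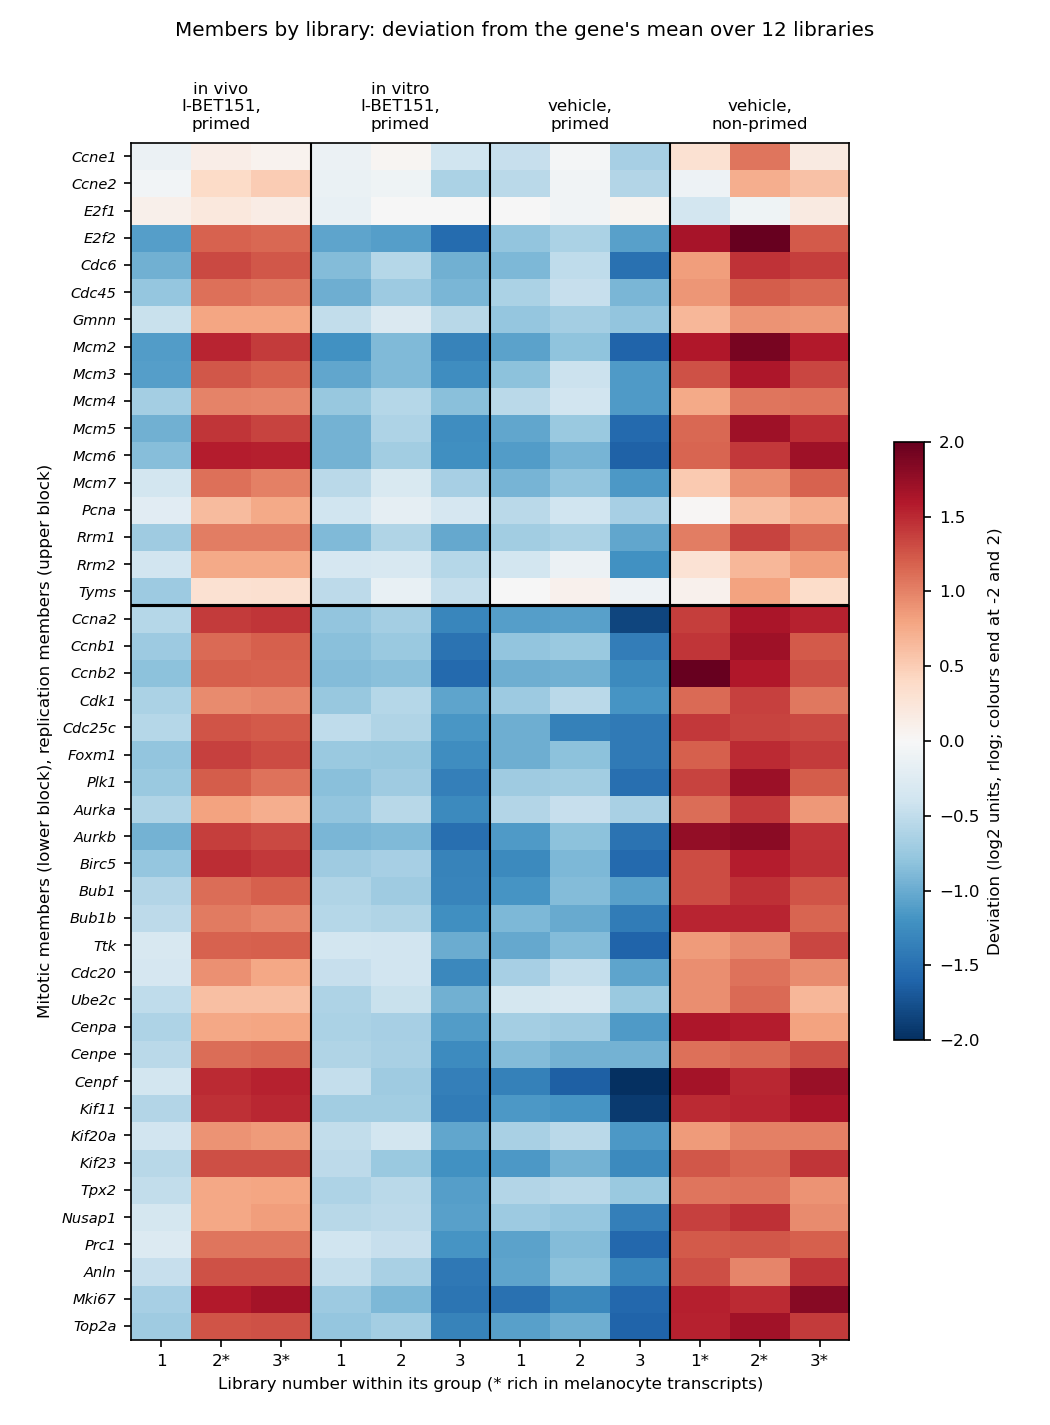
Deviation of each of the 44 members (rows, replication members above the line and mitotic members below it) from its mean over the 12 libraries, in log2 units on a colour scale that ends at -2 and 2, with asterisks on the libraries rich in melanocyte transcripts. Columns 2 and 3 of the in vivo treated group and the 3 non-primed vehicle columns are red in nearly all members, while E2f1 varies little.

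The in vivo treated group was compared with primed vehicle libraries to ask how the inhibitor given during priming altered the cultures. Here 10 of 17 replication and 25 of 27 mitotic members rose and none fell, at an adjusted p under 0.05 in limma, against 17.9% of all tested genes called higher. The median difference was 1.13 log2 units over the replication and 1.62 over the mitotic members, and -0.05 over all genes tested. The fit shares 1 spread over all groups, although the in vivo treated libraries varied more. The SD of the mean deviation was 0.88 for replication and 0.99 for mitotic members there, against 0.27 and 0.26 in primed vehicle libraries. With only the libraries compared in the fit, 1 replication and 5 mitotic members were called higher, against 1675 of the 16459 genes. These rises rested on in vivo treated libraries 2 and 3. With library 1 as the only in vivo treated library, 0 of 44 members were called, with medians of 0.12 and 0.46 and 0.377% of all genes called higher, in a fit that assumes the lone library to vary like the other groups. Without library 1, 14 of 17 replication and all 27 mitotic members were called higher, with medians of 1.74 and 2.24, against 4450 of the 16459 genes (27%). With libraries 2 and 3 averaged and counted as 1, 1 replication and 7 mitotic members were called, among 6.23% of all genes called higher, and leaving out library 2 or library 3 gave the same counts of members (6.18% and 6.01% of all genes called higher). The counts were 4 and 18 without primed vehicle library 1 (11.9%), 5 and 20 without library 2 (10.4%) and 2 and 13 without library 3 (8.68%). The part of pigment-cell transcripts in the member differences was not tested.

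The origin licensing and helicase members held 7 of the 10 called replication members. Mcm6, a helicase subunit, stood at 12.15, 14.58 and 14.57 in the in vivo treated libraries, 12.07, 12.32 and 11.79 in the in vitro treated, 11.90, 12.09 and 11.39 in the primed vehicle and 14.17, 14.43 and 14.71 in the non-primed vehicle libraries. It had the largest difference of the replication members, 1.98 ± 0.54 (SE; adjusted p = 0.0194), and the 3 in vivo treated libraries lay above the 3 primed vehicle libraries, though library 1 by little. Mcm2 stood at 11.69, 14.33 and 14.20 in the in vivo treated libraries, 11.59, 11.92 and 11.46 in the in vitro treated, 11.74, 11.99 and 11.20 in the primed vehicle and 14.41, 14.71 and 14.39 in the non-primed vehicle libraries. Libraries 2 and 3 of the in vivo treated group were high, and library 1 lay within the primed vehicle range, at a group difference of 1.76 ± 0.57 (SE; adjusted p = 0.0341). Mcm5, a further subunit of the same ring, stood at 11.14, 13.54 and 13.45 in the in vivo treated libraries, 11.17, 11.49 and 10.87 in the in vitro treated, 11.06, 11.36 and 10.56 in the primed vehicle and 13.26, 13.81 and 13.59 in the non-primed vehicle libraries. Its groups overlapped through in vivo treated library 1, and the difference was 1.72 ± 0.54 (SE; adjusted p = 0.0303). Mcm7, at 12.20, 13.67 and 13.58 in the in vivo treated libraries, 12.03, 12.27 and 11.91 in the in vitro treated, 11.64, 11.78 and 11.41 in the primed vehicle and 13.08, 13.49 and 13.74 in the non-primed vehicle libraries, differed by 1.54 ± 0.34 (SE; adjusted p = 0.00932), and its groups did not overlap. Mcm4 also rose, by 1.11 ± 0.39 (adjusted p = 0.0451), and by 1.67 without in vivo treated library 1, but was not called when any 1 of the other 11 libraries was left out. With library 1 as the only in vivo treated library its difference was -0.0012. Not called were Mcm3 (1.23 ± 0.51, adjusted p = 0.0775) and Cdc45 (1.13 ± 0.41, adjusted p = 0.0504), which joins the MCM ring in the active helicase. Without in vivo treated library 1 both were called, at 2.00 for Mcm3 and 1.74 for Cdc45. With library 1 as the only in vivo treated library both turned sign, to -0.32 and -0.10.

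Loading of that ring depends on Cdc6 and is held back after S phase by geminin (Gmnn). Cdc6 stood at 9.45, 11.73 and 11.65 in the in vivo treated libraries, 9.54, 9.83 and 9.44 in the in vitro treated, 9.51, 9.90 and 8.92 in the primed vehicle and 11.25, 11.86 and 11.79 in the non-primed vehicle libraries. Within the in vivo treated group libraries 2 and 3 were high and library 1 lay within the primed vehicle range, and the group rose by 1.50 ± 0.53 (SE; adjusted p = 0.0451). Gmnn stood at 9.93, 11.16 and 11.17 in the in vivo treated libraries, 9.89, 10.09 and 9.82 in the in vitro treated, 9.60, 9.69 and 9.59 in the primed vehicle and 11.05, 11.27 and 11.27 in the non-primed vehicle libraries. All 3 in vivo treated libraries lay above the primed vehicle libraries, and the difference was 1.12 ± 0.29 (SE; adjusted p = 0.0147).

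Among the genes of DNA synthesis and nucleotide supply 3 of 4 rose. Pcna, the sliding clamp of DNA polymerases, stood at 13.01, 13.86 and 13.98 in the in vivo treated libraries, 12.83, 13.04 and 12.89 in the in vitro treated, 12.69, 12.83 and 12.57 in the primed vehicle and 13.26, 13.83 and 13.96 in the non-primed vehicle libraries. It rose by 0.92 ± 0.25 (SE; adjusted p = 0.0193) without overlap. The ribonucleotide reductase subunit Rrm2 stood at 13.93, 15.06 and 15.06 in the in vivo treated libraries, 13.97, 13.99 and 13.74 in the in vitro treated, 13.94, 14.19 and 13.10 in the primed vehicle and 14.60, 14.98 and 15.14 in the non-primed vehicle libraries. In vivo treated library 1 lay within the primed vehicle range, and the difference was 0.94 ± 0.34 (SE; adjusted p = 0.0494). Without primed vehicle library 3, the lowest of its group, the difference was 0.62 and was not called. Its partner Rrm1 rose by 1.23 ± 0.39. Tyms, which makes thymidylate, stood at 10.66, 11.69 and 11.71 in the in vivo treated libraries, 10.87, 11.23 and 10.90 in the in vitro treated, 11.37, 11.47 and 11.29 in the primed vehicle and 11.47, 12.19 and 11.75 in the non-primed vehicle libraries. It was lowest in in vivo treated library 1 and differed between the groups by -0.027 ± 0.28 (SE; adjusted p = 0.944), the smallest difference of all members.

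None of the cyclin E and E2F members was called. Ccne1 stood at 11.06, 11.31 and 11.25 in the in vivo treated libraries, 11.07, 11.22 and 10.79 in the in vitro treated, 10.72, 11.14 and 10.51 in the primed vehicle and 11.49, 12.25 and 11.35 in the non-primed vehicle libraries. Its range was narrow and the groups overlapped, at a difference of 0.41 ± 0.24 (SE; adjusted p = 0.189). E2f1, an activator of the S-phase genes, stood at 12.15, 12.26 and 12.19 in the in vivo treated libraries, 11.89, 12.04 and 12.03 in the in vitro treated, 12.04, 11.96 and 12.09 in the primed vehicle and 11.67, 11.96 and 12.23 in the non-primed vehicle libraries. It differed by 0.17 ± 0.13 (SE; adjusted p = 0.323), with non-primed vehicle library 1 the lowest of all. The differences of Ccne2 and E2f2 were 0.68 ± 0.26 (adjusted p = 0.0613) and 1.25 ± 0.54 (adjusted p = 0.0849). Without in vivo treated library 1 E2f2 was called, at 2.01, and with library 1 as the only in vivo treated library it differed by -0.26.

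Of the 9 mitotic cyclins, kinases and their regulators 8 rose. Ccnb1, cyclin B1, stood at 10.58, 12.42 and 12.49 in the in vivo treated libraries, 10.46, 10.56 and 9.81 in the in vitro treated, 10.50, 10.56 and 9.90 in the primed vehicle and 12.73, 13.00 and 12.52 in the non-primed vehicle libraries. In vivo treated library 1 lay just above the highest primed vehicle library, and the group rose by 1.51 ± 0.45 (SE; adjusted p = 0.0265). Cdk1, the kinase it activates, stood at 11.83, 13.40 and 13.43 in the in vivo treated libraries, 11.70, 11.89 and 11.40 in the in vitro treated, 11.72, 11.92 and 11.27 in the primed vehicle and 13.59, 13.82 and 13.50 in the non-primed vehicle libraries. The groups overlapped through in vivo treated library 1, at a difference of 1.24 ± 0.37 (SE; adjusted p = 0.0264). Plk1, polo-like kinase 1, stood at 10.40, 12.34 and 12.22 in the in vivo treated libraries, 10.30, 10.42 and 9.77 in the in vitro treated, 10.43, 10.44 and 9.63 in the primed vehicle and 12.49, 12.86 and 12.35 in the non-primed vehicle libraries. Its in vivo treated library 1 lay within the primed vehicle range, and it rose by 1.49 ± 0.46 (SE; adjusted p = 0.0296). Foxm1, the transcription factor of the G2 wave, stood at 10.93, 13.09 and 13.02 in the in vivo treated libraries, 10.98, 10.96 and 10.47 in the in vitro treated, 10.75, 10.90 and 10.31 in the primed vehicle and 12.91, 13.21 and 13.11 in the non-primed vehicle libraries. It rose by 1.70 ± 0.48 (SE; adjusted p = 0.0211), with library 1 close above the primed vehicle libraries. Aurkb, the kinase of the chromosomal passenger complex, stood at 10.13, 12.45 and 12.40 in the in vivo treated libraries, 10.16, 10.18 and 9.57 in the in vitro treated, 9.94, 10.25 and 9.60 in the primed vehicle and 12.83, 12.87 and 12.51 in the non-primed vehicle libraries. It rose by 1.73 ± 0.52 (SE; adjusted p = 0.0265), again with library 1 inside the primed vehicle range. Cyclin A2 (Ccna2), cyclin B2 (Ccnb2) and the phosphatase Cdc25c rose by 2.09, 1.59 and 1.88. The spindle pole kinase Aurka, at 0.88 ± 0.34, was not called (adjusted p = 0.0631), though it was, at 1.33, without in vivo treated library 1. With library 1 as the only in vivo treated library Aurka differed by -0.032.

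All 6 centromere, chromosome and passenger members rose. Cenpf (chromosome 1, 189640606 to 189688086, GRCm38) stood at 11.39, 13.23 and 13.28 in the in vivo treated libraries, 11.27, 11.03 and 10.38 in the in vitro treated, 10.39, 10.12 and 9.74 in the primed vehicle and 13.41, 13.26 and 13.48 in the non-primed vehicle libraries. It had the largest difference of all members, 2.55 ± 0.45 (SE; adjusted p = 0.004), and all 3 in vivo treated libraries lay above the primed vehicle libraries, library 1 included. Mki67 (chromosome 7, 135689784 to 135716361, GRCm38) stood at 13.10, 15.36 and 15.43 in the in vivo treated libraries, 13.04, 12.88 and 12.31 in the in vitro treated, 12.28, 12.48 and 12.20 in the primed vehicle and 15.33, 15.26 and 15.60 in the non-primed vehicle libraries. Its groups did not overlap either, and it rose by 2.31 ± 0.51 (SE; adjusted p = 0.009). Top2a, which untangles sister chromatids, stood at 13.30, 15.27 and 15.29 in the in vivo treated libraries, 13.23, 13.33 and 12.68 in the in vitro treated, 12.92, 13.04 and 12.41 in the primed vehicle and 15.55, 15.70 and 15.41 in the non-primed vehicle libraries. It rose by 1.83 ± 0.46 (SE; adjusted p = 0.0139), with library 1 next to the primed vehicle libraries. Cenpa, the centromeric histone H3 variant, stood at 10.25, 11.64 and 11.65 in the in vivo treated libraries, 10.23, 10.19 and 9.75 in the in vitro treated, 10.18, 10.14 and 9.72 in the primed vehicle and 12.48, 12.43 and 11.66 in the non-primed vehicle libraries. It rose by 1.17 ± 0.37 (SE; adjusted p = 0.0321), and within the non-primed vehicle group library 3 was lower than the others. The passenger subunit survivin (Birc5) and the kinetochore motor Cenpe rose by 1.95 and 1.50.

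In the spindle checkpoint and anaphase group 4 of 5 members rose. Bub1, a checkpoint kinase, stood at 10.84, 12.55 and 12.62 in the in vivo treated libraries, 10.83, 10.72 and 10.11 in the in vitro treated, 10.24, 10.56 and 10.34 in the primed vehicle and 12.74, 12.89 and 12.69 in the non-primed vehicle libraries. It rose by 1.62 ± 0.40 (SE; adjusted p = 0.0136) without overlap. Cdc20, the activator of the anaphase-promoting complex, stood at 10.89, 12.14 and 12.00 in the in vivo treated libraries, 10.77, 10.84 and 9.94 in the in vitro treated, 10.56, 10.75 and 10.17 in the primed vehicle and 12.16, 12.32 and 12.18 in the non-primed vehicle libraries. It rose by 1.18 ± 0.34 (SE; adjusted p = 0.0218), and in vitro treated library 3 was the lowest of the 12. The checkpoint proteins BubR1 (Bub1b) and Mps1 (Ttk) rose by 1.61 and 1.85. Ube2c, the ubiquitin carrier of the anaphase-promoting complex, stood at 10.68, 11.79 and 11.79 in the in vivo treated libraries, 10.57, 10.75 and 10.23 in the in vitro treated, 10.85, 10.88 and 10.46 in the primed vehicle and 12.12, 12.33 and 11.86 in the non-primed vehicle libraries. It had the smallest mitotic difference, 0.69 ± 0.29 (SE; adjusted p = 0.0769), and was called, at 1.06, only without in vivo treated library 1 among the fits that left out 1 library. With library 1 as the only in vivo treated library it differed by -0.043.

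All 7 spindle and cytokinesis members rose, between 0.97 (Tpx2, a spindle assembly factor) and 2.21 (Kif11, the motor that separates spindle poles). The midzone organiser Prc1 rose by 1.79 ± 0.35 (SE; adjusted p = 0.00626), and the cytokinesis scaffold Anln by 1.76 ± 0.43 (SE; adjusted p = 0.0127). Kif20a, Kif23 and Nusap1 rose by 1.24, 1.80 and 1.38. In all 7 members the 3 in vivo treated libraries lay above the primed vehicle libraries, as they did in 22.7% of all tested genes.

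Among the 7 libraries poor in melanocyte transcripts, which hold 1 in vivo treated library, the members stood differently. In a fit of these 7 libraries, Cenpf was higher in in vivo treated library 1, at 1.30 ± 0.37 (SE; adjusted p = 0.0474), and Tyms lower, at -0.72 ± 0.17 (adjusted p = 0.031), and the remaining 42 members were not called, against 8.68% of all genes called higher and 11.8% lower. The lone library is assumed there to vary like the other groups. Over the 27 mitotic members 25 differences were above 0, and over the 17 replication members 12 were.

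**Figure D3:**
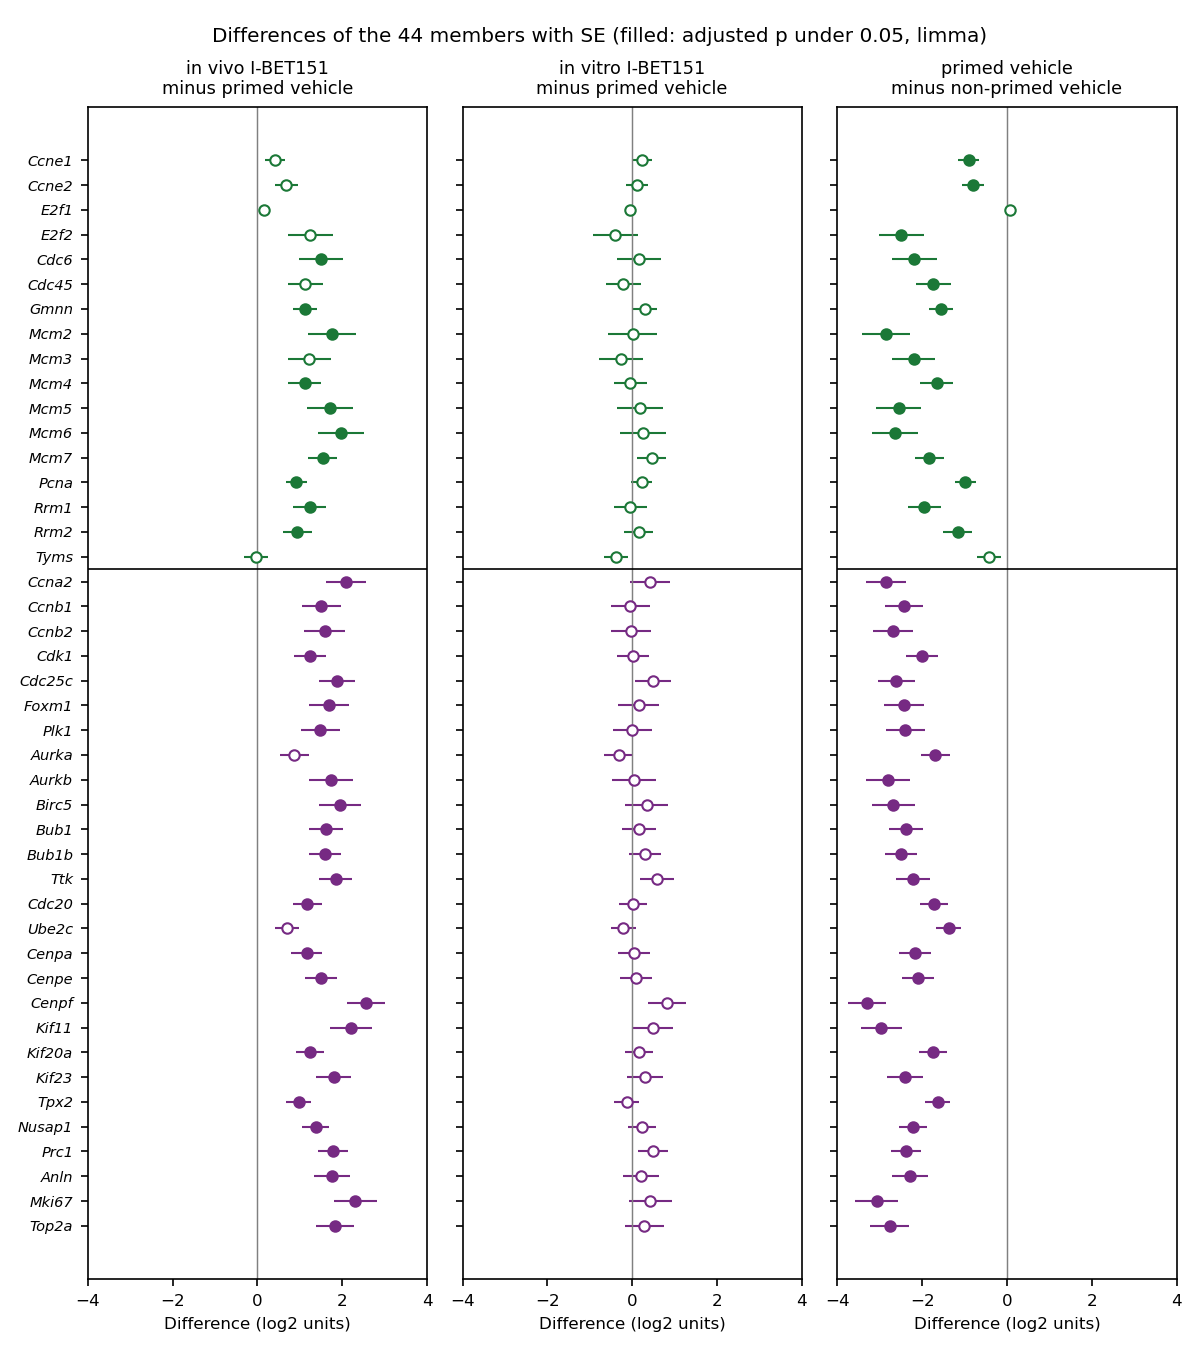
Difference of each member in log2 units with its SE for in vivo treated minus primed vehicle, in vitro treated minus primed vehicle and primed vehicle minus non-primed vehicle libraries, with filled symbols where limma's adjusted p was under 0.05. Most members lie to the right of 0 in the first panel, around 0 in the second and to the left of 0 in the third, with E2f1 near 0 throughout.

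Cells of primed paws exposed to the inhibitor for 24 h were compared with primed vehicle cells to ask what a short exposure in culture does. Neither group holds a library rich in melanocyte transcripts. No member was called, against 4.51% of all tested genes. None had an unadjusted p under 0.05 in limma, whereas 3922 of the 16459 tested genes did. The median difference was 0.12 over replication and 0.17 over mitotic members. Mcm7 had the largest difference of the replication members, 0.46 ± 0.34 (SE; adjusted p = 0.463), and Cenpf of the mitotic members, 0.81 ± 0.45 (SE; adjusted p = 0.303), and the smallest of each class were those of Mcm2 and Plk1, 0.013 ± 0.57 and 0.0012 ± 0.46. A p that misses the threshold does not show that levels were alike, since standard errors of the members reached 0.57.

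With only the in vitro treated and primed vehicle libraries in the fit, the standard errors were smaller and 30.3% of all genes were called. Mcm7, whose 3 in vitro treated libraries lay above the 3 primed vehicle libraries, was then higher (0.46 ± 0.13, adjusted p = 0.0407), and the other 43 members were not called. Geminin and Pcna also lay above the primed vehicle libraries in every in vitro treated library, and Tyms below them, without being called. In total 3 members lay wholly above and 1 wholly below, against 22.7% and 25.7% of all tested genes. Without in vivo treated library 1 in the fit of all groups, Cenpf was higher (0.81 ± 0.23, adjusted p = 0.0393), among 16.1% of all genes called.

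The vehicle libraries of primed and non-primed paws were compared to ask what the earlier crystal exposure left behind. Here 15 of 17 replication and 27 of 27 mitotic members fell, against 22.9% of all tested genes called lower. The median difference was -1.74 over replication and -2.40 over mitotic members, and 0.05 over all genes. The standard errors below come from the spread shared with the divided in vivo treated group, and reached 0.57 and 0.52. With only the vehicle libraries in the fit they reached 0.30 and 0.26. There 15 and 27 members fell as well, against 3489 of the 16459 genes. All 3 non-primed and none of the primed vehicle libraries were rich in melanocyte transcripts, so priming, paw side and that split cannot be told apart here.

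Cenpf fell furthest, to 10.08 ± 0.33 in primed vehicle against 13.38 ± 0.11 in non-primed vehicle libraries (SD, n = 3 each), a difference of -3.30 ± 0.45 (SE; adjusted p = 0.00101). Mcm2 fell furthest of the replication members, to 11.64 ± 0.40 in primed vehicle against 14.50 ± 0.18 in non-primed vehicle libraries, at -2.86 ± 0.57 (SE; adjusted p = 0.0033). Mki67, Kif11 and Ccna2 fell by more than the mitotic median, at -3.07, -2.96 and -2.86. Ube2c had the smallest mitotic difference, -1.38 ± 0.29 (SE; adjusted p = 0.00393). The origin licensing and helicase members all fell, between -1.57 for the licensing inhibitor Gmnn and the value of Mcm2. The cyclins E fell less, at -0.91 ± 0.24 for Ccne1 and -0.81 ± 0.26 for Ccne2, and the Ccne2 groups overlapped. Leaving out 1 library, Ccne1 ranged from -1.08 to -0.63 and Ccne2 from -1.06 to -0.64, with 13 to 15 replication members called. E2f2 also fell, at -2.49 ± 0.54 (SE; adjusted p = 0.00439). The exceptions were E2f1, 0.079 ± 0.13 (SE; adjusted p = 0.639), and Tyms, -0.42 ± 0.28 (SE; adjusted p = 0.221). The Rrm2 difference, -1.16 ± 0.34 (SE; adjusted p = 0.0166), was not called without primed vehicle library 3 or without non-primed vehicle library 3. The sign of the E2f1 difference turned, to -0.057, when each library was centred on its median.

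Against non-primed vehicle libraries the in vivo treated group showed no called member, and limma called 0 of all 16459 genes. Unadjusted, 1 replication and 6 mitotic members had a p under 0.05, among 3366 of all genes. The medians were -0.54 over replication and -0.75 over mitotic members. E2f2 stood at 7.26, 9.54 and 9.51 in the in vivo treated libraries, 7.30, 7.25 and 6.82 in the in vitro treated, 7.57, 7.72 and 7.27 in the primed vehicle and 10.00, 10.44 and 9.58 in the non-primed vehicle libraries. It had the largest replication difference, -1.24 ± 0.54 (SE; adjusted p = 0.234), with in vivo treated library 1 far below the others of the 6. Pcna had the smallest, -0.066 ± 0.25. Ccnb2, cyclin B2, stood at 10.17, 12.18 and 12.17 in the in vivo treated libraries, 10.11, 10.15 and 9.43 in the in vitro treated, 10.01, 10.03 and 9.71 in the primed vehicle and 12.99, 12.59 and 12.27 in the non-primed vehicle libraries. It had the largest mitotic difference, -1.11 ± 0.47 (SE; adjusted p = 0.231), and its 3 in vivo treated libraries lay below the non-primed vehicle libraries. Ttk, the smallest at -0.37 ± 0.40, stood at 9.73, 11.24 and 11.26 in the in vivo treated libraries, 9.69, 9.68 and 9.06 in the in vitro treated, 9.04, 9.20 and 8.46 in the primed vehicle and 10.92, 11.03 and 11.40 in the non-primed vehicle libraries. In 20 members, 16 of them mitotic, the in vivo treated libraries all lay below the non-primed vehicle libraries, against 8.62% of all tested genes. Within the 5 libraries rich in melanocyte transcripts the medians were -0.00056 and -0.15, and limma called 0 of all 16459 genes. There E2f2 and Ccnb2 differed by -0.49 and -0.44. With in vivo treated library 1 alone, assumed to vary like the other groups, 12 replication and 27 mitotic members were lower, against 15.6% of all genes called lower. Without non-primed vehicle library 3, limma called 2812 genes (17.1%), and of the members only E2f1 was called, higher at 0.39 ± 0.11 (SE; adjusted p = 0.0443).

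In vivo treated and in vitro treated libraries were compared to set the routes of dosing side by side, although dose, duration and the state of the mouse differ between them. No gene was called, members included, and the adjusted p of the members was 0.122 or higher. Unadjusted, 40 of 44 members had a p under 0.05, as did 5341 of all genes. All 44 differences were above 0, with medians of 1.15 over replication and 1.45 over mitotic members. They ran from 0.18 (Ccne1) to 1.75 (Mcm2) over the replication and from 0.90 (Ube2c) to 1.89 (Mki67) over the mitotic members. With in vivo treated library 1 alone the medians were 0.04 and 0.27, with 0 of all genes called, and without it 14 replication and 27 mitotic members were called higher, against 21.9% of all genes.

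Further genes of the same processes were listed by function, with earlier results of these data known, and went mostly in the same directions. They were read in the same libraries as the members, so they are no separate test of them. In vivo treated against primed vehicle libraries, 30 of 40 further replication and S-phase genes rose and none fell, with Dscc1, a clamp loader subunit, at 2.51 ± 0.64 (SE; adjusted p = 0.0152). Of 40 further mitosis genes 31 rose, with the spindle pole protein Aspm at 2.73 ± 0.53 (SE; adjusted p = 0.00596). In that list 2 fell, Gtse1, a microtubule-binding regulator of p53, at -0.93 ± 0.27 (SE; adjusted p = 0.0241) and securin (Pttg1) at -0.63 ± 0.16 (SE; adjusted p = 0.0134). Of all tested genes 17.9% were called higher and 21.8% lower. Mean deviations of these lists, replication first, were -0.64 and -0.60 in in vivo treated library 1, 1.01 and 1.04 in library 2 and 1.00 and 1.04 in library 3. In the primed vehicle libraries they were -0.78, -0.59 and -1.10 for the replication and -0.78, -0.73 and -1.16 for the mitosis genes. Library 1 thus stood near the primed vehicle libraries. In vitro treated against primed vehicle libraries 1 of the 40 further mitosis genes and none of the further replication genes was called, against 4.51% of all tested genes. That gene was Gtse1, lower at -1.26 ± 0.27 (SE; adjusted p = 0.0338), a call that was lost in 8 of the 12 fits without 1 library. Gtse1 stood at 10.67, 11.43 and 11.32 in the in vivo treated libraries, 10.68, 10.70 and 11.03 in the in vitro treated, 12.17, 11.86 and 12.16 in the primed vehicle and 11.95, 12.50 and 11.44 in the non-primed vehicle libraries. It was high in the primed vehicle libraries and in non-primed vehicle libraries 1 and 2, whereas most members were low in the primed vehicle libraries. In primed against non-primed vehicle libraries 39 of 40 further replication genes fell, with Dscc1 at -3.56, and 37 of 40 further mitosis genes, with Aspm at -3.53. Of all tested genes 22.9% were called lower there. The exceptions were Gins2, a subunit of the replicative helicase, and Pttg1, the spindle protein Ckap2 and Gtse1.

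Of the 8 G1 cyclins and kinases tested, with Cdk3 not analysed here, 2 rose and 1 fell in in vivo treated against primed vehicle libraries, where 17.9% of all genes were called higher and 21.8% lower. In primed against non-primed vehicle libraries 3 fell, where 28.9% of all genes were called higher and 22.9% lower, and nothing is read from such small counts. Cyclin D1 (Ccnd1) stood at 14.50, 11.81 and 12.03 in the in vivo treated libraries, 13.97, 13.12 and 14.47 in the in vitro treated, 15.51, 14.33 and 14.31 in the primed vehicle and 13.62, 14.29 and 11.04 in the non-primed vehicle libraries. Its lowest values were those of in vivo treated libraries 2 and 3 and non-primed vehicle library 3, and it was not called in either comparison (-1.94 ± 0.89 in in vivo treated against primed vehicle and 1.73 ± 0.89 in primed against non-primed vehicle libraries, the second 0.76 without non-primed vehicle library 3). Cyclin D3 (Ccnd3) stood at 13.53, 14.76 and 14.65 in the in vivo treated libraries, 13.42, 13.51 and 13.36 in the in vitro treated, 12.89, 12.96 and 13.69 in the primed vehicle and 14.30, 14.30 and 14.77 in the non-primed vehicle libraries. It rose by 1.14 ± 0.32 (SE; adjusted p = 0.0205) in in vivo treated against primed vehicle and fell by 1.28 ± 0.32 (SE; adjusted p = 0.00802) in primed against non-primed vehicle libraries. Cyclin D2 (Ccnd2) and Cdk4 differed by 0.43 ± 0.16 and 0.066 ± 0.10 in in vivo treated against primed vehicle libraries and were not called. Cdk6 fell in that comparison, -0.59 ± 0.19 (SE; adjusted p = 0.033), and the phosphatase Cdc25a fell in primed against non-primed vehicle libraries, -1.06 ± 0.31 (SE; adjusted p = 0.0175).

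Cdk2, the partner of cyclin E, stood at 11.33, 15.04 and 14.99 in the in vivo treated libraries, 11.27, 11.22 and 11.38 in the in vitro treated, 11.69, 11.48 and 11.35 in the primed vehicle and 15.01, 14.70 and 15.02 in the non-primed vehicle libraries. It rose by 2.28 ± 0.78 (SE; adjusted p = 0.0406) in in vivo treated against primed vehicle libraries, or by 3.51 without in vivo treated library 1. With library 1 as the only in vivo treated library it differed by -0.18. In primed against non-primed vehicle libraries it fell by 3.40 ± 0.78 log2 units (SE; adjusted p = 0.00551). The gene (chromosome 10, 128697939 to 128705031, minus strand, GRCm38) shares 837 bases with Pmel (128704195 to 128720238, plus strand), which encodes a pigment granule protein and is among the melanocyte markers. The strand setting of the counting is not given in the sources used here. Reads in the shared bases therefore cannot be told apart, and the Cdk2 level is uncertain.

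Of the 7 inhibitors of the G1 and S-phase kinases, 2 rose and 1 fell in in vivo treated against primed vehicle libraries, and 3 rose and 3 fell in primed against non-primed vehicle libraries, against the same shares of all genes as given for the G1 cyclins. Cdkn2b, which encodes p15, stood at 12.30, 8.25 and 8.50 in the in vivo treated libraries, 12.29, 12.42 and 11.93 in the in vitro treated, 12.05, 12.06 and 12.35 in the primed vehicle and 7.88, 8.07 and 3.58 in the non-primed vehicle libraries. It was low in the 5 libraries rich in melanocyte transcripts and lowest in non-primed vehicle library 3, and it rose by 5.64 ± 1.24 (SE; adjusted p = 0.00466) in primed against non-primed vehicle libraries. Cdkn2a, which encodes p16 and p19ARF, stood at 12.28, 8.10 and 8.75 in the in vivo treated libraries, 11.91, 12.23 and 11.24 in the in vitro treated, 11.76, 11.75 and 12.47 in the primed vehicle and 9.01, 9.05 and 3.60 in the non-primed vehicle libraries. It had the same low libraries and rose by 4.78 ± 1.41 (SE; adjusted p = 0.0174) in that comparison, or by 2.97 without non-primed vehicle library 3, and was not called without primed vehicle library 3 (adjusted p = 0.0543). In in vivo treated against primed vehicle libraries Cdkn2b differed by -2.47 ± 1.24 (adjusted p = 0.128) and Cdkn2a by -2.28 ± 1.41 (adjusted p = 0.209), and both were lower, at -3.78 and -3.57, without in vivo treated library 1. With library 1 as the only in vivo treated library they differed by 0.14 and 0.29. Cdkn1a, the p53 target p21, stood at 14.18, 12.77 and 12.72 in the in vivo treated libraries, 13.97, 13.84 and 14.81 in the in vitro treated, 15.29, 14.99 and 15.79 in the primed vehicle and 14.43, 14.57 and 12.49 in the non-primed vehicle libraries. It was highest in the primed vehicle libraries, fell by 2.13 ± 0.57 (SE; adjusted p = 0.0178) in in vivo treated against primed vehicle libraries and rose by 1.53 ± 0.57 (SE; adjusted p = 0.0454) in primed against non-primed vehicle libraries. In vitro treated against primed vehicle libraries it differed by -1.15 ± 0.57 (adjusted p = 0.253), and every in vitro treated library lay below every primed vehicle library. This in vitro difference was called in the fit of the 7 libraries poor in melanocyte transcripts (adjusted p = 0.028). The rise in primed against non-primed vehicle libraries was 0.86 without non-primed vehicle library 3 (adjusted p = 0.148), and the call was lost in 9 of the 12 fits without 1 library.

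Cdkn2d, which encodes p19INK4d, stood at 10.71, 12.10 and 12.18 in the in vivo treated libraries, 10.60, 10.75 and 10.57 in the in vitro treated, 10.16, 9.94 and 10.40 in the primed vehicle and 12.03, 11.80 and 12.12 in the non-primed vehicle libraries. It rose by 1.50 ± 0.33 (SE; adjusted p = 0.0089) in in vivo treated against primed vehicle libraries and fell by 1.82 ± 0.33 (SE; adjusted p = 0.00242) in primed against non-primed vehicle libraries. Cdkn1b, which encodes p27, rose by 1.04 ± 0.33 in the first of these comparisons and fell by 1.44 ± 0.33 in the other. Cdkn2c, which encodes p18, fell by 1.28 ± 0.43 in primed against non-primed vehicle libraries, a call that was lost without non-primed vehicle library 3 or without primed vehicle library 1 or 2. In in vivo treated against primed vehicle libraries Cdkn2c differed by 1.10 ± 0.43 (adjusted p = 0.0613), and it was called, at 1.65, without in vivo treated library 1. With library 1 as the only in vivo treated library it differed by -0.0017. Cdkn1c, which encodes p57, was not called in either comparison (-0.16 ± 0.60 and 0.094 ± 0.60).

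**Figure D4:**
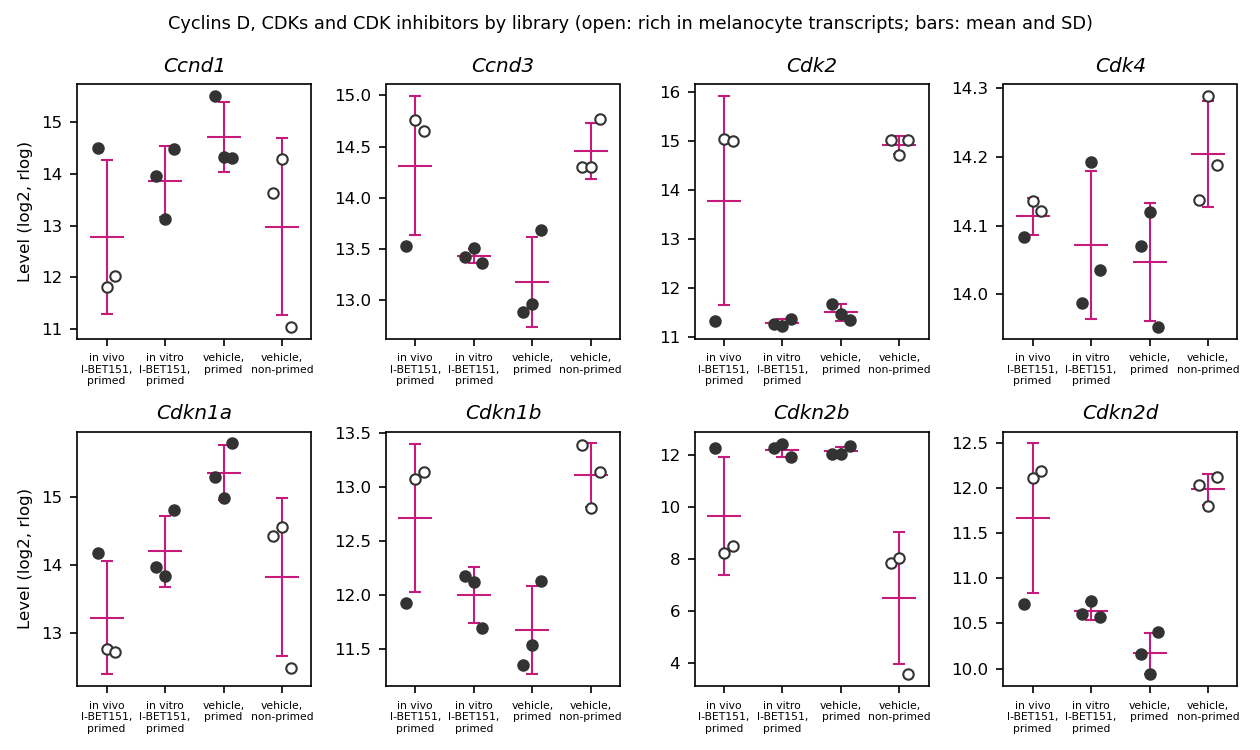
Level (rlog, log2) of cyclins D1 and D3, Cdk2, Cdk4 and 4 CDK inhibitors in each library, by group, with open symbols for libraries rich in melanocyte transcripts and bars for the group mean and SD. Cdkn2b and Cdkn1a are low, and Cdk2, Ccnd3 and Cdkn2d high, in in vivo treated libraries 2 and 3 relative to library 1 of that group.

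Pocket proteins hold E2F factors off their targets, and MuvB subunits bind the promoters of the later wave. Of 11 pocket proteins and other E2F factors 6 rose and 1 fell in in vivo treated against primed vehicle libraries, against 17.9% of all tested genes called higher and 21.8% lower. The repressor E2f8 rose by 1.50 ± 0.45 (SE; adjusted p = 0.0258), and E2f4, the E2F partner of p107 and p130, differed by -0.58 ± 0.16 (SE; adjusted p = 0.0188). In primed against non-primed vehicle libraries 6 of the 11 fell, with p107 (Rbl1) at -2.11 ± 0.42 (SE; adjusted p = 0.00314), against 22.9% of all tested genes called lower. Nothing is read from counts in lists this small. Of 7 MuvB and Myb genes 4 rose in in vivo treated against primed vehicle libraries, with Myb at 1.96 ± 0.59 (SE; adjusted p = 0.0265). In primed against non-primed vehicle libraries 5 of the 7 fell, with Myb at -2.58 ± 0.59 (SE; adjusted p = 0.00558). The shares of all tested genes are those given for the list before. Myb is a different gene from Mybl2, the gene of B-Myb. Its mean over the 12 libraries was 3.89, close to the minimum of 3, so its differences rest on low values. In in vitro treated against primed vehicle libraries no gene of either list was called, against 4.51% of all tested genes.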

How the data were processed

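The 12 RNA libraries, 3 per group, were made with a stranded mRNA kit and sequenced, per the labels' protocols. Reads were trimmed with cutadapt 1.18, aligned with STAR 2.6.1c to GRCm38 and counted with featureCounts of Subread 1.6.1, and DESeq2 1.24.0 was used, per the submitters' processing notes. Neither the strand setting nor the annotation is stated there. The authors deposited rlog values, on a log2 scale, for 55413 Ensembl genes, of which 19136 were at 0 in every library. The rlog transform shrinks differences of low genes, and the count totals behind it are not used here, so depth is unknown and no interval from counting can be given. All sample columns were used.

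Genes with a mean of at least 3 over the 12 libraries were tested, 16459 in all. limma 3.58.1 in R 4.3.3 fitted 1 mean per group over all 12 libraries with a variance trend, for 5 comparisons, and p-values were adjusted by Benjamini and Hochberg over all tested genes. A gene was called at an adjusted p under 0.05, two-sided. The fit was run on simulated data with 1 spread per gene in all libraries. That setting leaves out the larger spread of the in vivo treated group, so it could not test its effect. Tables were made with Python 3.11.15 and pandas 2.3.3. Gene coordinates are those of GENCODE on GRCm38, and promoter windows are from RefSeq on GRCm38.p6.

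The members and gene lists were chosen with earlier results of these data known. Values per library are given for 18 members chosen for their roles and for the largest and smallest difference per comparison and class. Named besides are uncalled members where most were called, all CDK inhibitors and D cyclins, and the called gene of each further list with the largest difference in each direction. Further members are named to account for all 44, and Cdc25a, Cdk4, Gins2, Pttg1 and Ckap2 fall outside this rule and were named after their values were seen.

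Alternatives varied the minimum mean, variance trend, robust moderation, median centring, quantile normalization, array weights, the libraries in the fit and a replicate block, and left out each library in turn. Fits of only the 7 or 5 libraries poor or rich in melanocyte transcripts, and of in vivo treated libraries 2 and 3 averaged, were chosen after seeing the data.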

Additional observations from a re-analysis of the deposited data

How the results depend on the processing

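In primed against non-primed vehicle libraries 13 to 15 replication and 27 mitotic members fell in every fit run, whereas the counts of the other comparisons moved with the libraries used. Of the comparisons of single genes under all alternatives, 2416 kept direction and call, 375 lost and 78 gained a call, and 54 turned sign; of the counts and medians 527 stayed close and 78 moved. The cause was not tested.

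In vivo treated against primed vehicle libraries, the 6531 genes, 10 replication and 25 mitotic members became 195, 0 and 0 without in vivo treated libraries 2 and 3, with class medians of 0.12 and 0.46. Only the 7 libraries poor in melanocyte transcripts gave 3365 genes, 1 replication member (Tyms, lower) and 1 mitotic member (Cenpf, higher), with the same medians. Averaging libraries 2 and 3 gave 2500, 1 and 7, only the libraries compared 3950, 1 and 5, and array weights 12582 genes and 16 replication members. No filter on low values left 6 replication members. Leaving out 1 library gave 2435 to 9962 genes, 1 to 14 replication and 7 to 27 mitotic members.

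In vitro treated against primed vehicle libraries, the 743 genes called became 6326 with array weights (2 replication and 3 mitotic members), 378 with libraries 2 and 3 averaged, 470 at a minimum mean of 5, 1180 with no filter, 1155 after quantile normalization, 173 with the replicate block, 4983 with only the libraries compared and 4989 with only the 7 libraries, the last 2 with 1 replication member each. Leaving out 1 library gave 12 to 2644 genes and 0 to 1 mitotic members. In vivo treated against non-primed vehicle libraries, 0 called genes became 6563 with array weights (3 replication and 4 mitotic members), 2 after quantile normalization, and 5816 without in vivo treated libraries 2 and 3 (12 and 27 members, medians -1.66 and -1.93). Leaving out 1 library gave 0 to 2812 genes and 0 to 1 replication members. In vivo against in vitro treated libraries, 0 called genes became 12243 with array weights (16 and 27 members) and 1 with no filter. The medians were 0.040 and 0.27 without libraries 2 and 3 and with only the 7 libraries, and leaving out 1 library gave 0 to 8085 genes, 0 to 14 replication and 0 to 27 mitotic members.

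Scaling moved the centre of all genes. In in vivo treated against primed vehicle libraries the median of all genes was -0.05, with 2946 higher and 3585 lower calls, against 0.19, 4595 and 2967 after quantile normalization and 0.13, 4029 and 2964 after median centring. Under quantile normalization the class medians were 1.36 and 1.75. In primed against non-primed vehicle libraries it was 0.05, with 4754 and 3774 calls, against -0.24, 3858 and 5680 after quantile normalization, with class medians of -1.87 and -2.56, and 4209 and 4434 after median centring.

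Among single genes in in vivo treated against primed vehicle libraries, Tyms was 0.30 with array weights, 0.16 median-centred and 0.033 quantile-normalized, and Cdkn1c 0.020 and 0.69 under the last 2. Without libraries 2 and 3, and equally with only the 7 libraries, the values turned to -0.043 for Ube2c, -0.032 for Aurka, -0.32 for Mcm3, -0.26 for E2f2, -0.10 for Cdc45, -0.18 for Cdk2, -0.0012 for Mcm4, 0.11 for Cdkn1c, 0.29 for Cdkn2a, 0.14 for Cdkn2b and -0.0017 for Cdkn2c. In primed against non-primed vehicle libraries Cdkn1c was -0.042 median-centred, -0.98 quantile-normalized and -0.56 with array weights, Gtse1 -0.035 median-centred and -0.10 with array weights, and E2f1 -0.057 median-centred. Array weights gave -0.0022 for Mcm2 in in vitro treated against primed vehicle libraries, and 0.42 for Pcna and 0.26 for Ttk in in vivo treated against non-primed vehicle libraries, where the 5 rich libraries gave 0.24 and 0.14. Leaving out 1 library, Tyms ranged from -0.20 to 0.32 and Cdkn1c from -0.48 to 0.20 in in vivo treated against primed vehicle libraries, and in primed against non-primed vehicle libraries Cdkn1c from -0.60 to 0.71, E2f1 from -0.062 to 0.22 and Gtse1 from -0.16 to 0.37. In in vitro treated against primed vehicle libraries Mcm2 ranged from -0.21 to 0.19 and Plk1 from -0.27 to 0.20, and in in vivo treated against non-primed vehicle libraries Pcna from -0.28 to 0.24 and Ttk from -0.63 to 0.14.

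Libraries with the same replicate number did not deviate together, with correlations across genes of -0.43 to 0.37, so the numbers were not read as pairs, and 1 or 2 of the 6 libraries of a comparison correlated best with their own number. With the replicate block in the fit, in vivo treated against primed vehicle libraries gave 5977 genes and 10 replication members, and the 173 genes above were its only count outside 1.5 times. Depth is unknown, so low genes cannot be weighted by their counts.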
